A study of Rattus norvegicus with 9 samples.

Results

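The annexins are a family of calcium-dependent, phospholipid-binding proteins, and 9 of their genes, Anxa1 to Anxa8 and Anxa11, were followed in the vestibular epithelium of rats exposed to the ototoxic nitrile 3,3'-iminodipropionitrile (IDPN). They were taken by gene symbol from a table of 32883 genes. All 9 were among the 15517 genes with enough counts to be tested, Anxa8 at low counts. The question was whether the other annexins shared the early rise of Anxa1, which the authors had already reported at 3 weeks from these rats.

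The animals were male Long-Evans rats. The IDPN-3wk and IDPN-7wk groups drank water with 20 mM IDPN for 3 or 7 weeks, while the Control group, which drank plain water, was shared by both exposures and included rats euthanized at each time point. Each library came from the 6 cristae and 2 utricles of 1 rat, pooled, with 3 rats per group. These organs hold the hair cells (HC), which sense head movement, and the supporting cells around them, but the dissected tissue holds other cells as well. In such bulk RNA, fewer cells of a type and less RNA per cell cannot be told apart.

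Annexins bind negatively charged membrane lipids when calcium rises, and several of them gather at wounded plasma membrane. Annexin A1, first known as a protein induced by glucocorticoids, dampens inflammation through formyl peptide receptors and can pair with S100A11. Annexin A2 forms a complex with S100A10 that binds plasminogen and its activator at the cell surface. Annexin A5, the probe used to stain dying cells for exposed phosphatidylserine, is abundant in the stereocilia of HCs.

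Libraries held from 31100118 to 46018385 counts. At these depths 3 counts equal 0.0611 to 0.101 CPM, counts scaled to a common library size and the unit of every level below. At equal depth, 3 libraries showed fewer genes than the rest, with 15387 to 15501 genes against 16829 to 17296 in the other 6. These were Control replicate 3 and IDPN-3wk replicates 1 and 2, so values within both sets of libraries stand beside the results they touch. Summed levels of 8 HC markers were 2104 to 2627 CPM in Control, 941 to 1204 CPM after 3 weeks and 1004 to 1117 CPM after 7 weeks. Schwann cell markers were also abundant, at 9112 to 11436 CPM in Control.

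Anxa1, the member that rose, and Anxa2 were the members whose RefSeq promoter held a TATA box. The 250 bases before the gene start are printed for these, 5′ to 3′ on the gene's strand, because they show what the rising gene shares with a member that did not pass the test. Capitals mark the letters TATAAA.
Anxa1, GRCr8 chr1:227303733-227303982, minus strand: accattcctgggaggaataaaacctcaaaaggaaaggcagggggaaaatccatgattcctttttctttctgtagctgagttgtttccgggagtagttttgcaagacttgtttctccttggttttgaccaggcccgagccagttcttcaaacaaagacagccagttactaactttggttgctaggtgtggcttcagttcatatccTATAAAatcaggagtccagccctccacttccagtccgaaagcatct
Anxa2, GRCr8 chr8:78986002-78986251, plus strand: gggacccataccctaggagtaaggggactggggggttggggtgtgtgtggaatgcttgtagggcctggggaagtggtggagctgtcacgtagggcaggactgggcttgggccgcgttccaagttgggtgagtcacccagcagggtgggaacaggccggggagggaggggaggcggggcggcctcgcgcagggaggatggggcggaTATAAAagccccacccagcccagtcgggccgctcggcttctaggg
TATAAA began 46 bases before the start of Anxa1 and 45 bases before that of Anxa2. It was found on either strand in 12.9% of the 33469 promoters of the same length and in 3 of the 10 annexin promoters available, the third being Anxa10. The Anxa1 window was 45.2% G and C, against 67.2% for Anxa2 and 69.2% for Anxa11. The letters CCAAT, counted on both strands, occurred in Anxa4 and Anxa7 and in 34% of all promoters. The AP-1 letters TGANTCA occurred in Anxa2 and Anxa10 and in 6.34% of all promoters. Neither the glucocorticoid receptor letters AGAACA (17.5% of promoters), the interferon-stimulated response element (ISRE, 3.41%) nor the STAT letters TTCNNNGAA (7.67%) occurred in an annexin window. These matches describe letters in a window of a later genome build than the counts were made on, and no binding was measured.

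Anxa1 (ENSRNOG00000017469) was upregulated at both exposures, and no other of the 9 members passed the test at either. In Control its level was 432, 337 and 702 CPM. In IDPN-3wk it was 1608, 2157 and 1311 CPM, and in IDPN-7wk 1303, 1742 and 1638 CPM. Every exposed library was above every Control library, and the lowest exposed library lay at nearly the same level in both groups. The group means were 490.1 ± 189 CPM in Control, 1692 ± 429 CPM after 3 weeks and 1561 ± 229.6 CPM after 7 weeks (SD, n = 3).

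**Figure D1:**
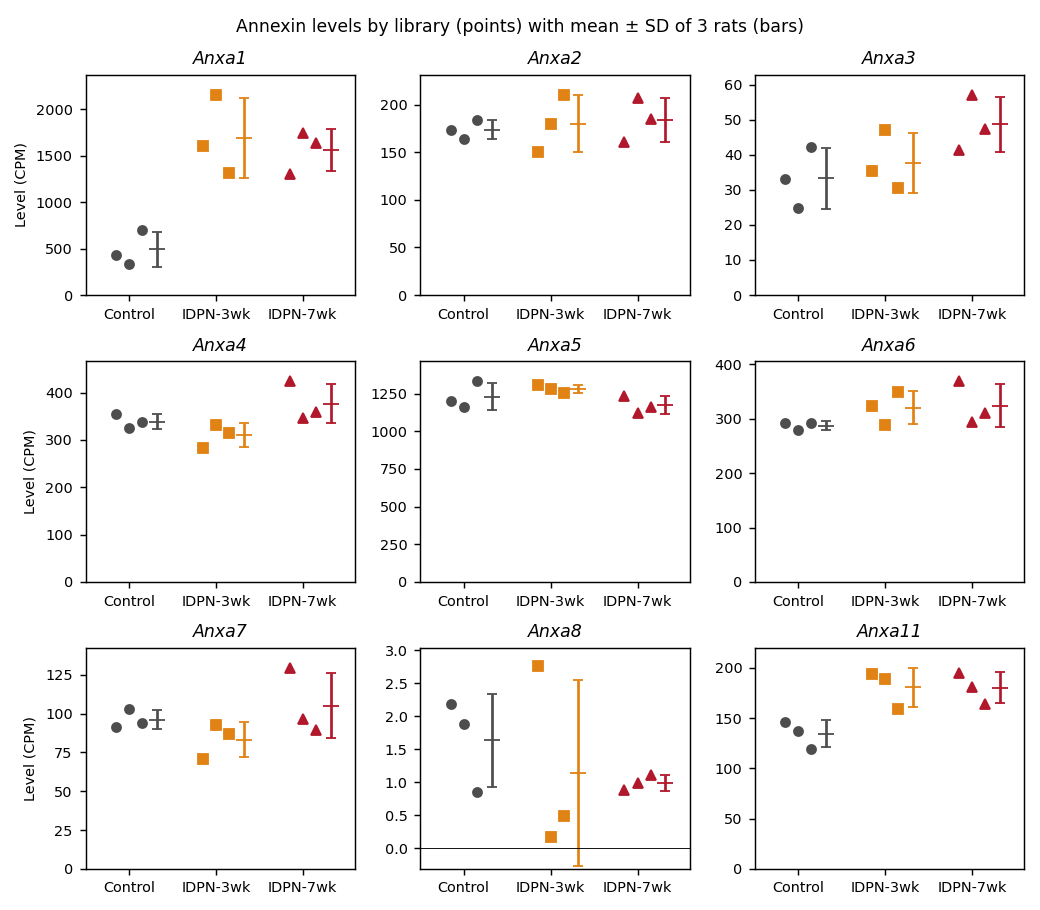
Levels of the 9 annexin genes in CPM (vertical axis, linear, each panel with its own scale) in the 3 Control, 3 IDPN-3wk and 3 IDPN-7wk libraries, with points for libraries and bars for mean ± SD (n = 3). The exposed libraries of Anxa1 lie between 1303 and 2157 CPM, all above the Control libraries, and the Anxa11 panel is the other one in which both exposed groups clear Control.

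At 3 weeks the log2 fold change of Anxa1 was 1.79 (SE 0.267, 95% interval 1.19 to 2.38), a 3.45-fold rise with an edgeR adjusted p of 0.0112. A gene was called a DEG if its adjusted p was under 0.05 and its fold change above 1.5. Of the 9 members, 1 was called higher, where 0.438% of all genes tested were, and 0 were called lower, where 1.21% were. The 1 called was Anxa1, whose known rise set the question, so this count is not a result about the family. Of the 68 genes called higher, 10 had a larger rise than Anxa1. Leaving out Control replicate 1 ended the call, with a log2 fold change of 1.70 and an adjusted p of 0.0628.

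The 3 libraries with fewer detected genes bear on this result, since Control replicate 3 was the highest Control library for Anxa1 and IDPN-3wk replicates 1 and 2 were the highest at 3 weeks. Within those libraries the difference between IDPN-3wk and Control was 1.41 on the log2(CPM + 2) scale, with 2 libraries against 1. Within the other libraries it was 1.78, with 1 against 2. Anxa1 was higher in the IDPN-3wk libraries than in Control in both sets.

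At 7 weeks the log2 fold change of Anxa1 against Control was 1.67 (SE 0.266, 95% interval 1.08 to 2.26), a 3.19-fold rise with an adjusted p of 0.00516. Again 1 of the 9 members, Anxa1 itself, was called higher, against 2.00% of all genes, and 0 were called lower, against 3.13%. Here 92 of the 311 genes called higher had a larger rise. Within the libraries with more detected genes, the difference was 2.02 on the log2(CPM + 2) scale, with 3 libraries against 2.

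Between the exposures Anxa1 did not pass the test, with a log2 difference of −0.12 for IDPN-7wk against IDPN-3wk and a 95% interval from −0.69 to 0.46 (adjusted p = 0.899). Of the 9 members, 0 were called higher and 0 lower in this comparison, where 0.348% and 0.135% of all genes were. At an unadjusted p under 0.05 there was 1 member, Anxa4, where 2140 of all 15517 genes tested were. Both comparisons with Control share the same 3 rats, so each is given by its own values.

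**Figure D2:**
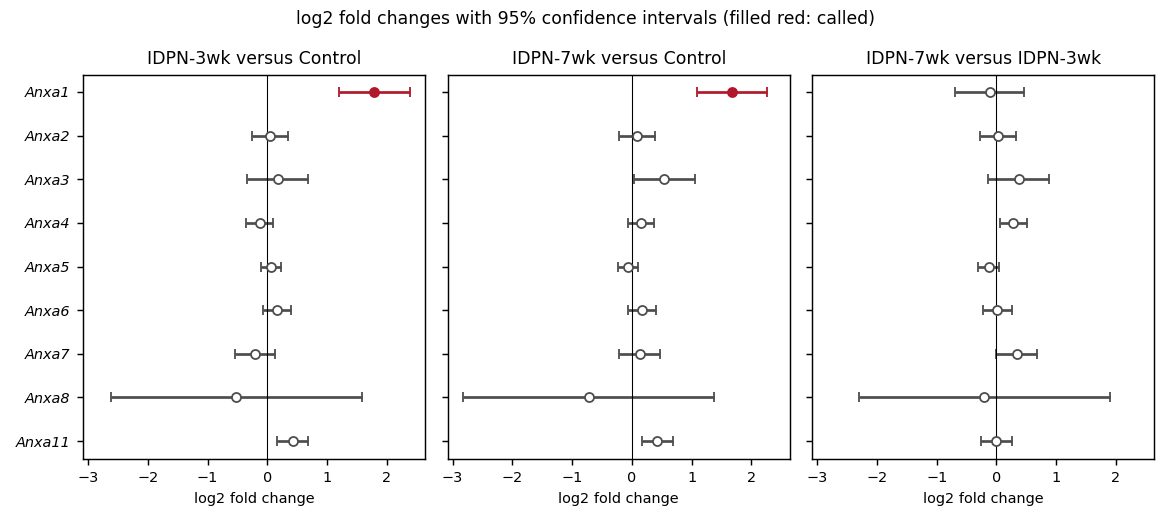
log2 fold changes of the 9 annexin genes (horizontal axis) with 95% confidence intervals in the 3 comparisons, with filled red points for genes called. Only Anxa1 is called, at 1.79 and 1.67 against Control, and the interval of Anxa8 is the widest.

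Whether the other 8 members moved with Anxa1 was asked first from their own changes. The median of their log2 fold changes was 0.06 at 3 weeks, with 5 positive and 3 negative, beside a median of −0.000467 over all genes tested. At 7 weeks the median was 0.14, with 6 positive and 2 negative, beside 0.00970 over all genes. The upper 95% bound of every other member except Anxa8 lay below the lower bound of Anxa1 in both comparisons with Control.

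Within each library, the level of Anxa1 was also set against that of each other member. The log2 ratio rose from Control to IDPN-3wk by 1.40 (against Anxa11) to 2.10 (against Anxa8). In all 8 pairs the 3 exposed libraries were above the 3 Control libraries. All 8 ratios hold the same Anxa1 levels, so the pairs largely repeat the rise of Anxa1 and are not separate results. The values against Anxa8 rest on levels of 0.168 to 2.75 CPM, near the 2 CPM added before the log. From Control to IDPN-7wk the ratio rose by 1.19 (against Anxa3) to 1.99 (against Anxa8), again without overlap in 8 of 8 pairs. Between the exposures its change ran from −0.46 to 0.03. In the two-sided exact permutation test of 3 against 3 libraries each pair with Control gave p = 0.1, the smallest that this design allows, and an adjusted p of 0.141.

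**Figure D3:**
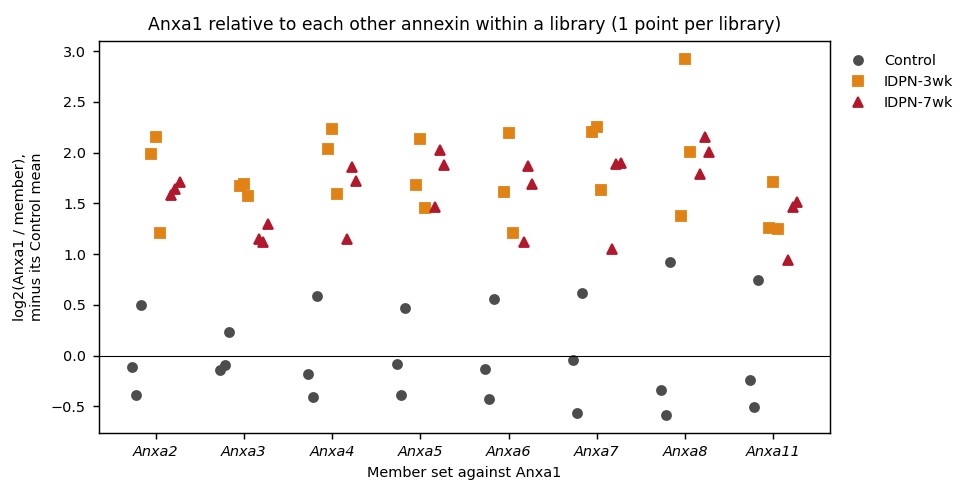
log2 ratio of Anxa1 to each of the other 8 annexins within a library (vertical axis, computed on CPM + 2 and set to a Control mean of 0 for each member), with 1 point per library. For every member the 3 IDPN-3wk and 3 IDPN-7wk points lie above the 3 Control points, with mean changes from 1.19 to 2.10.

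Anxa11 (ENSRNOG00000010984) came nearest to Anxa1 among the other members at 3 weeks, by log2 fold change. At 7 weeks the change of Anxa3 was larger (0.54 against 0.42). Anxa11 encodes an annexin with a long disordered N-terminal region that tethers RNA granules to lysosomes for transport. Its level was 146, 137 and 119.6 CPM in Control, 194, 189 and 159 CPM in IDPN-3wk, and 195, 181 and 164 CPM in IDPN-7wk. Both exposed groups were above Control without overlap. The log2 fold change was 0.42 in each comparison, with 95% intervals of 0.17 to 0.68 at 3 weeks and 0.16 to 0.68 at 7 weeks. Neither passed the edgeR test, with adjusted p-values of 0.105 and 0.0644. With DESeq2 the adjusted p-values were 0.0175 and 0.0134, but the 1.34-fold change stayed under the threshold of 1.5. At 3 weeks the difference was 0.67 within the libraries with fewer detected genes and 0.16 within the rest, on the log2(CPM + 2) scale.

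Anxa3 (ENSRNOG00000002045), an annexin prominent in neutrophils, was 33.2, 24.7 and 42.1 CPM in Control. It was 35.4, 47.2 and 30.5 CPM in IDPN-3wk and 41.4, 57.2 and 47.4 CPM in IDPN-7wk. The groups overlapped at both times, at 7 weeks by Control replicate 3 alone. Against Control the difference on the log2 scale was 0.18 at 3 weeks (adjusted p = 0.773) and 0.54 at 7 weeks (95% interval 0.04 to 1.05, adjusted p = 0.226). Without the 3 libraries with fewer detected genes, an alternative chosen after seeing the data, the value at 7 weeks was 0.74 with an adjusted p of 0.0283.

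Groups did not overlap for 2 of the 9 members at 3 weeks (Anxa1 and Anxa11), where 19.6% of all genes had groups apart. At 7 weeks this held for 3 members (Anxa1, Anxa6 and Anxa11), where 34.3% of all genes did. Between the exposures it held for 2 members (Anxa4 and Anxa5), where 21.0% of all genes did. At an unadjusted p under 0.05 there were 2 members at 3 weeks (Anxa1 and Anxa11) and 3 at 7 weeks (Anxa1, Anxa3 and Anxa11). Of all 15517 genes tested, 2444 were under 0.05 at 3 weeks and 2992 at 7 weeks.

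Anxa2 (ENSRNOG00000010362), the partner of S100A10, ran from 150.1 to 211 CPM over all libraries. Its level was 174, 164 and 184 CPM in Control, 150.1, 179 and 211 CPM in IDPN-3wk, and 160.5, 207 and 185 CPM in IDPN-7wk. Both exposed groups extended below the lowest Control library and above the highest. On the log2 scale the difference from Control was 0.05 at 3 weeks (95% interval −0.25 to 0.35, adjusted p = 0.906) and 0.08 at 7 weeks (95% interval −0.22 to 0.39, adjusted p = 0.818).

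Anxa5 (ENSRNOG00000014453) was 1199, 1158 and 1330.4 CPM in Control, 1309, 1283 and 1253 CPM in IDPN-3wk, and 1237, 1122 and 1162 CPM in IDPN-7wk. Against Control the log2 difference was 0.06 (95% interval −0.11 to 0.24, adjusted p = 0.773) at 3 weeks and −0.07 (95% interval −0.24 to 0.11, adjusted p = 0.737) at 7 weeks. All 3 IDPN-7wk libraries were below all IDPN-3wk libraries, by 0.13 on the log2 scale, which did not pass the test (adjusted p = 0.523). Over all 9 libraries its level ran from 1122 to 1330.4 CPM, while the summed HC markers did not overlap between Control and either exposed group.

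Anxa4 (ENSRNOG00000018159), an annexin of epithelial cells, was 355, 324 and 337 CPM in Control. In IDPN-3wk it was 282, 332 and 315 CPM and in IDPN-7wk 424, 346 and 359.8 CPM. The IDPN-7wk libraries were above all IDPN-3wk libraries, with a log2 difference of 0.28 (95% interval 0.06 to 0.51) that did not pass the edgeR test (adjusted p = 0.256). Against Control the log2 fold change was −0.13 at 3 weeks (adjusted p = 0.582) and 0.15 at 7 weeks (adjusted p = 0.475).

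Anxa6 (ENSRNOG00000010668), a larger annexin with a duplicated core that acts in endocytosis and cholesterol traffic, was 292, 278 and 292 CPM in Control. It was 324, 289 and 349 CPM in IDPN-3wk and 369, 293 and 311 CPM in IDPN-7wk. The IDPN-7wk libraries cleared Control, the lowest of them narrowly. The log2 fold changes were 0.16 at 3 weeks (adjusted p = 0.513) and 0.17 at 7 weeks (adjusted p = 0.432).

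Anxa7 (ENSRNOG00000007136), also named synexin and known for promoting membrane fusion, was 91.5, 103 and 94.1 CPM in Control. It was 70.9, 92.5 and 86.7 CPM in IDPN-3wk and 129, 96.7 and 89.8 CPM in IDPN-7wk, so both exposed groups overlapped Control. Anxa7 differed from Control by −0.21 on the log2 scale at 3 weeks (adjusted p = 0.558) and 0.13 at 7 weeks (adjusted p = 0.736). A single library, IDPN-7wk replicate 1, held the highest value, and without it the change at 7 weeks was −0.0457.

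Anxa8 (ENSRNOG00000060949), an annexin of stratified epithelia, was near the lower end of what these libraries can measure, at 5 to 101 counts per library. Its level was 2.18, 1.88 and 0.844 CPM in Control, 2.75, 0.168 and 0.492 CPM in IDPN-3wk, and 0.876, 0.987 and 1.11 CPM in IDPN-7wk. The IDPN-3wk libraries spanned the whole range of the series. The 95% interval of its log2 fold change at 3 weeks ran from −2.62 to 1.58 (adjusted p = 0.846), which also holds the lower bound of Anxa1.

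Of the annexin genes outside the set of 9, Anxa9, Anxa10 and Anxa13 were in the table. Anxa9 (ENSRNOG00000021134), an atypical annexin that lacks functional calcium-binding sites, was 7.20, 8.30 and 9.40 CPM in Control. It was 11.1, 12.0 and 9.78 CPM in IDPN-3wk and 12.96, 16.9 and 16.0 CPM in IDPN-7wk. The groups did not overlap in any of the 3 comparisons. At 3 weeks the log2 fold change was 0.40 (95% interval −0.07 to 0.87, adjusted p = 0.397), which did not pass the test. At 7 weeks it was 0.88 (SE 0.213, 95% interval 0.41 to 1.35, adjusted p = 0.0374), so Anxa9 was called higher. That call held in 10 of 16 alternatives and was lost when any 1 of the Control or IDPN-7wk libraries was left out, with adjusted p-values up to 0.148. Between the exposures the difference of 0.48 had an adjusted p of 0.355. Anxa10 had 0 counts in all 9 libraries, which allows up to 0.0611 to 0.101 CPM. Anxa13 had at most 13 counts and was not tested.

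S100 proteins bind annexins, and 3 of the 7 S100 genes listed were called higher at 7 weeks, with 0 called lower. At 3 weeks 1 was called higher and 1 lower. Of all genes tested, 2.00% were called higher and 3.13% lower at 7 weeks, and 0.438% and 1.21% at 3 weeks. Over the 7 S100 genes the log2 fold changes had medians of 0.03 (3 weeks) and 0.26 (7 weeks). Between the exposures edgeR called 0 of the 7. An unadjusted p under 0.05 was found for 5 of them, and for 2140 of all 15517 genes tested. DESeq2 called S100a10 (adjusted p = 0.0133) and S100a11 (adjusted p = 0.000615) higher at 7 weeks than at 3.

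S100a10, the partner of annexin A2, was 25.7, 23.3 and 22.9 CPM in Control. It was 30.99, 29.9 and 33.9 CPM in IDPN-3wk and 61.0, 43.4 and 43.9 CPM in IDPN-7wk, without overlap between the groups. Relative to Control, S100a10 differed by a log2 value of 0.40 at 3 weeks (adjusted p = 0.267) and 1.05 at 7 weeks (SE 0.163, adjusted p = 0.00465). The call at 7 weeks held in 16 of 16 alternatives, while Anxa2 itself was not called.

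S100a11, the partner of annexin A1, was 5.88, 6.64 and 3.97 CPM in Control. It was 6.51, 3.97 and 6.30 CPM in IDPN-3wk and 19.5, 13.9 and 14.0 CPM in IDPN-7wk. IDPN-3wk overlapped Control, and IDPN-7wk was above both. Its difference from Control on the log2 scale was 0.03 at 3 weeks (95% interval −0.64 to 0.69, adjusted p = 0.982) and 1.52 at 7 weeks (SE 0.303, adjusted p = 0.0157). Between the exposures it was 1.495 (95% interval 0.82 to 2.17, adjusted p = 0.0734), which did not pass the edgeR test. The call at 7 weeks was lost without Control replicate 1 (adjusted p = 0.0567) or IDPN-7wk replicate 1 (adjusted p = 0.0811).

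S100a4, which binds annexin A2 and is expressed in fibroblasts and leukocytes, was 8.47, 9.24 and 4.81 CPM in Control. It was 16.2, 21.5 and 25.3 CPM in IDPN-3wk and 28.7, 44.5 and 44.3 CPM in IDPN-7wk, and the 3 groups did not overlap. Its rise over Control on the log2 scale was 1.48 at 3 weeks (SE 0.290, adjusted p = 0.0328) and 2.38 at 7 weeks (SE 0.297, adjusted p = 0.00137). The call at 3 weeks held in 8 of 16 alternatives, with adjusted p-values up to 0.102. It was lost when any 1 Control library, IDPN-3wk replicate 2 or 3, or IDPN-7wk replicate 2 or 3 was left out. A fit of the compared groups alone also lost it. The call at 7 weeks held in 16 of 16.

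S100a13, which takes part in the release of leaderless proteins, was called lower at 3 weeks. It was 103, 108 and 98.5 CPM in Control and 67.6, 46.7 and 56.6 CPM in IDPN-3wk. The log2 fold change was −0.85 (SE 0.184, adjusted p = 0.0492) and was called in 6 of 16 alternatives. The call was lost without any 1 Control library, IDPN-3wk replicate 2 or 3, or IDPN-7wk replicate 3. Further losses included RLE size factors, the covariate for libraries with fewer detected genes, and a fit of the compared groups alone. In IDPN-7wk S100a13 was 99.9, 61.5 and 84.6 CPM (log2 fold change −0.33, adjusted p = 0.379). S100b, a glial S100 gene, reached an adjusted p of 0.0333 at 7 weeks with a log2 difference of −0.48, under the fold threshold. S100a1 and S100a6 did not pass the test in any comparison.

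**Figure D4:**
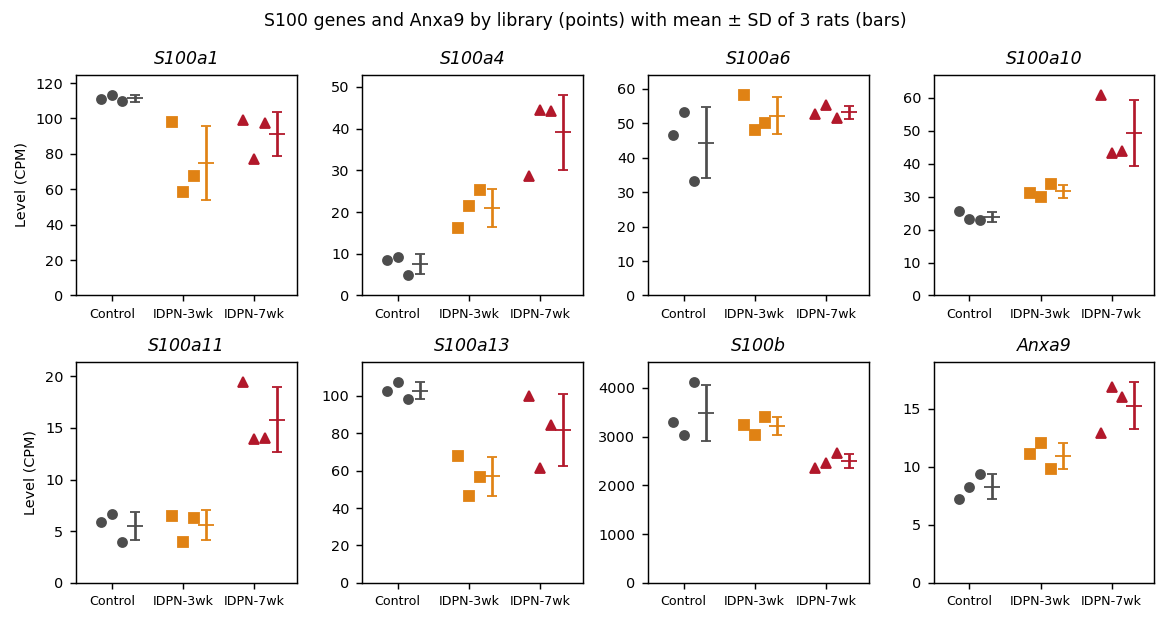
Levels of the 7 S100 genes and of Anxa9 in CPM (vertical axis, linear, each panel with its own scale) by library, with points for libraries and bars for mean ± SD (n = 3). S100a4 is higher in every IDPN-3wk library than in Control, whereas S100a11 is higher only in the IDPN-7wk libraries, at 13.9 to 19.5 CPM.

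The formyl peptide receptors, through which annexin A1 signals, were nearly without counts. The 6 receptor genes in the table had 3 counts in all over the 9 libraries, with at most 2 in a library, and none was tested.

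Of 13 genes of plasma membrane repair that were tested, 0 were called in any comparison by edgeR or by DESeq2. Each comparison had 1 at an unadjusted p under 0.05. Of all 15517 genes tested, 2444, 2992 and 2140 were under 0.05 at 3 weeks, at 7 weeks and between the exposures. Over the 13 repair genes the log2 fold changes had medians of 0.04 (3 weeks) and 0.16 (7 weeks). Dysf, which encodes the repair protein dysferlin, had a value of −1.06 at 3 weeks (unadjusted p = 0.0389, adjusted p = 0.285 by edgeR). Cav1, the caveolar coat gene, had a value of 0.51 at 7 weeks (adjusted p = 0.0543).

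Among 8 genes known to respond to glucocorticoids, edgeR called 0 in each comparison, with median log2 fold changes of −0.12 at 3 weeks and −0.30 at 7 weeks. The receptor gene itself, Nr3c1, was listed but not found by symbol among the genes of the table, so it was not analysed here. DESeq2 called 1 of the 8 lower at 7 weeks, the kinase gene Sgk1 (log2 fold change −0.63, adjusted p = 0.0125). The inducible genes Tsc22d3 and Fkbp5 had values of 0.17 and −0.50 at 3 weeks (adjusted p = 0.876 and 0.858). At an unadjusted p under 0.05 in edgeR there were 0 of these genes at 3 weeks, 1 at 7 weeks and 2 between the exposures. Over all 15517 genes tested the numbers were 2444, 2992 and 2140.

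In the plasminogen system, whose activator binds the annexin A2 complex, edgeR called 0 of 4 genes tested in any comparison. At an unadjusted p under 0.05 there were 2 at 7 weeks (Plau and Plaur) and 0 in the other comparisons. Of all 15517 genes tested, 2992 were under 0.05 at 7 weeks. Plau, the urokinase gene, was 3.94, 0.532 and 0.788 CPM in Control, 0.790, 2.36 and 4.21 CPM in IDPN-3wk, and 7.19, 7.59 and 7.37 CPM in IDPN-7wk. Every IDPN-7wk library was above the others (log2 fold change 2.07, adjusted p = 0.183). Plaur, its receptor gene, was 0.135, 0 and 0 CPM in Control, 1.44, 0 and 0.400 CPM in IDPN-3wk, and 2.04, 2.47 and 1.44 CPM in IDPN-7wk (edgeR adjusted p = 0.118). Plaur was called higher at 7 weeks by DESeq2 (adjusted p = 0.0127) and by edgeR without the 3 libraries with fewer detected genes (adjusted p = 0.0112).

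Over the 9 libraries, the genes with a pattern most like Anxa1, by Pearson r of log2(CPM + 2) among the genes tested, were Cldn23 (r = 0.980), Tspo (0.977), Bsg (0.975), Ctsl (0.974) and Osgin1 (0.967). All 9 points share their groups and libraries, so these r describe likeness only. Cldn23, a claudin of tight junctions, rose in both comparisons (log2 fold change 1.40 with adjusted p = 0.0147 and 1.26 with adjusted p = 0.00926). Tspo, the mitochondrial translocator protein used as an imaging marker of glial activation, had 0.67 at 3 weeks (adjusted p = 0.0540) and was called at 7 weeks with 0.65 (adjusted p = 0.0303). Within the family, r with Anxa1 was 0.80 for Anxa9, 0.76 for Anxa11 and 0.71 for Anxa3. It was 0.40 or less for the other 6, down to −0.48 for Anxa8.

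Some markers of other cell types also differed between the groups. The summed level of 10 macrophage markers was 77.5 to 130.4 CPM in Control and 56.0 to 149 CPM in IDPN-3wk, with 0 of 10 called higher at 3 weeks. In IDPN-7wk it was 232 to 302 CPM, with 10 of 10 positive. At 7 weeks edgeR called 1 of the 10 higher (C1qb) and DESeq2 4, and without the 3 libraries with fewer detected genes edgeR called 8. Neutrophil markers summed to 0.506 to 2.24 CPM in Control, 1.21 to 8.88 CPM after 3 weeks and 4.01 to 4.96 CPM after 7 weeks. Of these 9 markers 4 were tested, with 0 called at 3 or at 7 weeks, and Elane was at 0 counts in all libraries. Mpo, which was not tested, reached 6.49 CPM in an IDPN-3wk library. Mean levels in Control and IDPN-7wk were 0.527 and 2.46 CPM for Csf3r, and 0.144 and 1.35 CPM for Cxcr2. For S100a9 they were 0.365 and 0.325 CPM. Endothelial markers summed to 258 to 271 CPM in Control and 309.5 to 344 CPM in IDPN-3wk, without overlap, with 0 of 4 called. In IDPN-7wk they summed to 233 to 381 CPM, which overlapped Control. There edgeR called 1 of 4 higher, Cdh5 (adjusted p = 0.0494), or 0 without the 3 libraries with fewer detected genes. The sums of fibroblast markers overlapped between all groups, at 500.3 to 737 CPM. At 7 weeks edgeR called 1 of the 5 lower, Lum (log2 fold change −1.83, adjusted p = 0.0163), where 3.13% of all genes tested were. Col1a1 had a value of 1.11 at 7 weeks and was not called (edgeR adjusted p = 0.176). At 3 weeks edgeR called 0 of the 5, and DESeq2 called Lum lower (adjusted p = 0.0215). Of all genes tested, edgeR called 0.438% higher at 3 weeks and 2.00% at 7 weeks.

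The sums of other marker lists were lower in the exposed groups. Of all genes tested, edgeR called 1.21% lower at 3 weeks and 3.13% at 7 weeks. Supporting cell markers summed to 12947 to 13432 CPM in Control, 7740.0 to 9703 CPM after 3 weeks and 5189 to 7506 CPM after 7 weeks, with 1 of 8 called lower at 3 weeks and 4 at 7 weeks. Otog alone made up most of this sum, with a mean of 8473 CPM in Control. Dark and transitional cell markers summed to 864 to 996 CPM, 580.1 to 659.98 CPM and 337 to 529 CPM in the same order, with 0 of 4 called lower at 3 weeks and 2 at 7 weeks. Neuron markers summed to 104 to 118 CPM, 63.8 to 75.3 CPM and 61.8 to 78.1 CPM, with 1 of 5 called lower at each time. The gene called was Snap25, with means of 38.6, 12.9 and 10.7 CPM in the same order. By edgeR the other neuron markers were not called. Log2 fold changes at 3 and 7 weeks were −0.20 and −0.20 for Nefl and −0.85 and −0.27 for Nefm. Those of Nefh (2.94) and Tubb3 (0.83) were positive at 3 weeks. Schwann cell markers overlapped Control at 3 weeks, at 7357 to 9709.8 CPM with 0 of 5 called. After 7 weeks they were 3083 to 6536 CPM, with 2 of 5 called lower, or 0 without the 3 libraries with fewer detected genes. The macrophage sums overlapped Control at 3 weeks and lay above it at 7 weeks. IDPN-3wk replicate 2, with the highest Anxa1 level (2157 CPM), had a macrophage sum of 149 CPM, above every Control library. The other IDPN-3wk libraries, at 59.8 and 56.0 CPM, were below every Control library. S100a4 was called at both times, and S100a10 and S100a11 at 7 weeks. The part of these cell types in the results was not tested.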

How the data were processed

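RNA-seq libraries of 9 male Long-Evans rats (3 Control, 3 IDPN-3wk, 3 IDPN-7wk) were prepared with a SMARTseq2 protocol from the pooled cristae and utricles of each rat, all with 1 batch label. The authors deposited 1 table of expected counts, the estimated number of reads of each gene, as whole numbers without normalization. The submitters' processing notes name STAR 2.5.3a and RSEM 1.3.0. Reads were mapped by the authors to the Rnor6 rat genome. Whether strand was used was not given in the sources used here. The libraries carry no molecular identifiers, so limits from 3 counts cover counting error only. Transcript lengths were not used here, so levels are not compared between genes.

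The tests were run in R 4.3.3 (limma 3.58.1, edgeR 4.0.16, DESeq2 1.42.0). After filterByExpr and TMM scaling, edgeR's quasi-likelihood test in its robust form was applied in 1 fit of all 9 libraries, each group having its own mean. Residual degrees of freedom were 6, and the prior ones had a median of 4.07. P-values were adjusted over all genes tested by Benjamini-Hochberg. CPM are TMM-normalized. Ratios within a library and Pearson r used log2(CPM + 2). The ratio tests were two-sided exact permutation tests adjusted over all member and comparison pairs. Detected genes were counted after thinning every library to the smallest total. The fit was tested on simulated data. Replicates were separate rats, numbered in the order of the samples, and the numbers pair no animals.

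All 9 members are named, with the genes of the lists of other annexins, S100 partners, formyl peptide receptors, membrane repair, glucocorticoid response and plasminogen, and the 5 genes with the highest r to Anxa1. The members and lists were chosen with earlier results of these data known. Promoters came from RefSeq (GRCr8) by symbol, with 8 of the 9 members matched. Anxa6 was not matched.

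Alternatives were DESeq2, RLE size factors, no filter, a minimum of 10 counts in each library, fits of the compared groups alone, a covariate for the 3 libraries with fewer detected genes, a fold change above 2, no fold threshold, a pseudocount of 0.5 for the ratios, and each library left out in turn. Leaving out the 3 libraries with fewer detected genes was added after seeing the data.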

Additional observations from a re-analysis of the deposited data

How the results depend on the processing

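The 1.34-fold change of Anxa11 lay under the fold threshold of 1.5, so it could not be called with that threshold, and the low counts of Anxa8 left its direction undetermined. The Anxa1 rise kept its direction in 16 of 16 alternatives at both times, at 1.57 to 2.14 at 3 weeks and 1.46 to 2.02 at 7 weeks on the log2 scale, and passed in 15 and 16. The members called at 3 weeks numbered 0 to 1 with each library left out, 0 without Control replicate 1, and at 7 weeks they numbered 2 (Anxa1 and Anxa3) without the libraries with fewer detected genes. Counts over all genes depended on the tool, with 256, 796 and 75 genes called by edgeR against 741, 1317 and 527 by DESeq2 at 3 weeks, at 7 weeks and between exposures, and 159, 480 and 56 above a fold change of 2. DESeq2 called the same members. No paired analysis was possible because the replicate numbers pair no animals.

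Changes of direction occurred only in values that were not called, and their cause was not tested. For IDPN-7wk against IDPN-3wk, the log2 difference of Anxa11 was 0.0041 with no filter, 0.00042 with at least 10 counts in every library, 0.0061 with the covariate and 0.18 without the 3 libraries. That of Anxa1 was 0.36 with the covariate and 0.25 without them. For Anxa2 it was −0.038 and −0.20, for Anxa6 −0.034 and −0.11, and for Anxa8 1.00 without them. With each library left out in turn, the ranges for IDPN-7wk against IDPN-3wk were −0.27 to 0.098 for Anxa1, −0.083 to 0.16 for Anxa2, −0.086 to 0.084 for Anxa6, −0.71 to 1.57 for Anxa8 and −0.087 to 0.060 for Anxa11. At 3 weeks they were −0.078 to 0.17 for Anxa2 and −0.018 to 0.38 for Anxa3, and at 7 weeks −0.0089 to 0.17 for Anxa2 and −0.046 to 0.23 for Anxa7.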
